A study of Mus musculus with 3 samples.

Results

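Sphingosine-1-phosphate signalling was described here through 7 genes, chosen by symbol and found as 7 of 28692 genes listed for whole mouse lung at P14: the receptors S1pr1, S1pr2, S1pr3, S1pr4 and S1pr5, the sphingosine kinase Sphk1, and the exporter Spns2. Single-cell RNA sequencing (scRNA-Seq) with a 3′ droplet kit that tags each captured RNA molecule with a unique molecular identifier (UMI) was performed on the lungs of 3 C57BL/6 pups, mice 2, 3 and 4, kept in room air (RA) from day 1 to day 14. All 3 pups form 1 group, with no genotype beyond the strain name and no treated group, so every comparison below is between cell types of the same animals.

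The 3 libraries held 9644 droplets called as cells, of which 7642 were kept (2386, 2601 and 2655). Kept droplets had 200 genes or more and a mitochondrial share of UMIs up to 20%. The median per kept cell was 7119, 4853 and 6453 UMIs. Pairs of libraries shared 5, 2 and 5 cell barcodes, and their gene counts differed far beyond sampling noise, with a chi-square per degree of freedom of at least 8.68. Cells were clustered without the 7 genes and without the 34 other genes of the pathway list, and clusters were named from marker lists. The 963 endothelial cells (ECs) held Aplnr-type capillary (504 cells), Car4-type capillary (167), arterial (164), venous (105) and lymphatic (23) cells. Immune cells numbered 3020, stromal cells 1538 and epithelial cells 1304, and 817 cells were left without a class. A name such as pericyte stands for cells like that type by their markers. Within the immune class, 82 cells led by Plac8, Iglc2 and Mzb1 were left unnamed, although UMIs of 6 of 6 B cell markers were found in them. These 82 cells were counted among the other immune cells in each comparison of an immune type, that of B cells included. Several names need care. The Col14a1-type fibroblast cluster was also led by Col2a1 and Acan, which are cartilage genes, the club-type cells had a median of 788 UMIs and the patrolling monocytes 1446, and 8 of the 23 lymphatic cells were marked as possible doublets, meaning droplets that hold more than 1 cell. A total of 156 cells, a number set by an assumed doublet rate, were so marked and were kept.

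Sphingosine-1-phosphate (S1P) is a lipid made inside cells when a sphingosine kinase adds a phosphate to sphingosine. Spns2 is a membrane transporter through which ECs release S1P, and S1P outside the cell acts on G protein-coupled receptors of the S1PR family. S1PR1 couples to inhibitory G proteins and is known for holding endothelial junctions together and for drawing lymphocytes out of tissue along the S1P gradient. S1PR2 and S1PR3 also couple to other classes of G protein, S1PR4 is known from blood and lymphoid cells, and S1PR5 from natural killer (NK) cells, patrolling monocytes and brain glia.

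The coordinates of all 7 genes are on GRCm38 in the GENCODE M21 annotation. S1pr1 (ENSMUSG00000045092) lies at chr3:115710433-115715072 on the minus strand. S1pr2 (ENSMUSG00000043895, chr9:20962361-20976781) and S1pr5 (ENSMUSG00000045087, chr9:21242912-21248443) lie on the same chromosome, also on the minus strand. S1pr3 (ENSMUSG00000067586) is at chr13:51408639-51422797 on the plus strand and S1pr4 (ENSMUSG00000044199) at chr10:81497747-81500132 on the minus strand. Sphk1 (ENSMUSG00000061878) is at chr11:116530925-116536674 on the plus strand, and Spns2 (ENSMUSG00000040447) is at chr11:72451638-72489904 on the minus strand. The coding sequence of each receptor lies in 1 unbroken block, whereas that of Sphk1 is split over 5 blocks and that of Spns2 over 12. S1pr3, S1pr5, Sphk1 and Spns2 overlap a gene on the opposite strand (Gm32834, Gm48303, Gm29292 and Mybbp1a). Whether counting used strand was not given in the sources used here, and the share of reads from these partners was not tested.

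Each of the 7 genes had most of its UMIs in 1 class of cells. The RefSeq promoter windows of S1pr3, S1pr4 and S1pr5 (GRCm38.p6, from 250 bases before to 50 after the start site, given 5′ to 3′ along the gene) are shown because they differ in base composition. Capitals mark a GC box, the letters GGGCGG on either strand.
S1pr3, chr13:51408368-51408667, plus strand: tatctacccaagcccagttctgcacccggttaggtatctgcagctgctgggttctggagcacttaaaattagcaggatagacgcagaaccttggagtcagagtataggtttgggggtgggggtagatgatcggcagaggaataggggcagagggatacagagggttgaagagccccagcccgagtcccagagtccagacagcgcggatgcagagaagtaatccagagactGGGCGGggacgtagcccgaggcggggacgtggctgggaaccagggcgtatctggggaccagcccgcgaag
S1pr4, chr10:81500088-81500387, minus strand: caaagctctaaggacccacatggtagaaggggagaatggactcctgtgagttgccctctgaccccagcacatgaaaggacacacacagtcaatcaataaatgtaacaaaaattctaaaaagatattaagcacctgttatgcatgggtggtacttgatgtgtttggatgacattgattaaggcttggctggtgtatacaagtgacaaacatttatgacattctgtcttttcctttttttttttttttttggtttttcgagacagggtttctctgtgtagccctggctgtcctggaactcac
S1pr5, chr9:21248394-21248693, minus strand: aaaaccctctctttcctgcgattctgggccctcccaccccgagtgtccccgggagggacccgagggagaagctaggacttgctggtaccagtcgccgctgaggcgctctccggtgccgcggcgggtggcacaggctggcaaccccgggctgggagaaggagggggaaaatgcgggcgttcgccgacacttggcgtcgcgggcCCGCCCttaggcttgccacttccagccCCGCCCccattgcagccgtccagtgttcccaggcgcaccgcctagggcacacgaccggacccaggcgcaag
The S1pr4 window was 41.0% G and C and lower in GC than all but 12.1% of promoter windows, and it held none of the 5 motifs searched. The S1pr5 window was 69.3% G and C, with 89.5% of windows below it, and held 2 GC boxes, and the S1pr3 window was 59.0% G and C and held 1. GC boxes were found in 35.7% of the 32851 windows of this length. The other motifs were TCACACC (T-box, in 3.98% of windows), CAGGAAG (ETS, 13.3%), CCACACCC (KLF, 3.56%, sharing the letters CACACC with the T-box core) and TATAAA (13.6%), each on both strands, and the 3 windows held none of these. Among the windows not shown, that of S1pr2 held CCACACCC and 1 of those of Sphk1 held TATAAA.

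Over all kept cells, 7365 UMIs of S1pr1 were counted, 1484 of S1pr2, 880 of S1pr3, 1715 of S1pr4, 110 of S1pr5, 246 of Sphk1 and 2488 of Spns2. ECs carried 60.1% of the S1pr1 UMIs and 77.7% of those of Spns2, immune cells 79.9% of S1pr4 and 96.4% of S1pr5, stromal cells 83.0% of S1pr3, and epithelial cells 54.3% of S1pr2 and 66.3% of Sphk1. These shares depend on how many cells of each class were captured. Levels are therefore given below in CPM, the share that a gene takes of all UMIs summed over the cells of a type in 1 mouse, scaled to a total of 1000000 UMIs, as mean ± SD with n = 3 mice unless another n is stated. Fold changes are log2 values ± SE from edgeR's quasi-likelihood test on UMI counts summed per mouse, with p-values adjusted over all genes tested (Benjamini-Hochberg) and a threshold of 0.05. With 3 sums per group taken as unpaired, a permutation over sums cannot go below p = 0.1. A permutation that keeps the pairs of sums from the same mouse cannot go that low.

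The exporter Spns2 was highest in ECs, and the kinase Sphk1, with few UMIs in all, was highest in epithelial cells and fibroblasts. Spns2 was found in every EC subtype and was highest in Aplnr-type capillary cells, the cells with Aplnr, Kit and Gpihbp1 that are also called general capillary cells. In these its level was 261, 283 and 247 CPM in mice 2, 3 and 4. The Car4-type capillary cells, the thin gas-exchange capillary cells also called aerocytes, had 192, 162 and 164 CPM of Spns2. The values were 147, 153 and 145 CPM in venous ECs and 94.7, 73.0 and 75.6 CPM in arterial ECs. No 2 neighbours in this order overlapped between mice. The deeper Car4-type sub-cluster of 93 cells had 213, 153 and 154 CPM by itself, which overlapped with the venous values. The shallow one of 74 cells had 107, 262 and 328 CPM, from 10, 9 and 8 UMIs. The highest mean of a named type outside the ECs was that of B cells.

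The Spns2 differences between EC subtypes passed the test in both directions. Aplnr-type capillary cells had 264 ± 18.1 CPM against 132 ± 7.63 CPM in the other ECs (log2 fold change 0.96 ± 0.09, edgeR adjusted p = 8.24e-07). Arterial ECs had 81.1 ± 11.8 against 224 ± 4.67 CPM (-1.39 ± 0.12, edgeR adjusted p = 8e-08). Of the 3 genes that could be tested in arterial ECs, only Spns2 passed. The arterial level came from 2 unlike sub-clusters. One, led by Cxcl12, Gja5 and Sema3g, had 127 ± 9.0 CPM, and the other, led by Cytl1, Vwf and Lyve1, had 26.9 ± 5.88 CPM (20 UMIs in 59 cells), lower in each of the 3 mice. In venous ECs Spns2 was also below the other ECs (149 ± 3.93 against 208 ± 4.27 CPM, -0.38 ± 0.11, edgeR adjusted p = 0.0221). This call rested on the weight of the Aplnr-type cells in the remainder and on all 3 mice: with each EC subtype weighted equally the difference was 0.021, and without mouse 2, 3 or 4 the adjusted p was 0.116, 0.0671 and 0.115. For the Car4-type cells the difference was -0.23 ± 0.11 (edgeR adjusted p = 0.175).

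The 23 lymphatic ECs, whose vessels are known to depend on Spns2 for lymph S1P, held 53 Spns2 UMIs, or 141 CPM over all mice (95% Poisson interval 105 to 184, which covers counting error only). Only mouse 2 had 10 or more such cells, so no test was made.

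Outside the ECs, the named type with the highest mean of Spns2 was B cells, with 33.3, 30.7 and 28.8 CPM, which overlapped with basophils or mast cells (20.8 CPM, n = 2 mice). This was above the other immune cells (30.9 ± 2.25 against 4.40 ± 3.04 CPM, 2.84 ± 0.31, edgeR adjusted p = 3.23e-07). The level was 43.7 ± 3.40 CPM in the Ms4a1- and Vpreb3-led sub-cluster and 19.98 ± 3.90 CPM in one led by Iglc2 and Igkc. EC marker RNA was also present in B cells, with UMIs of 6 of 6 EC markers at 258 to 294 CPM in all. Most of it was Pecam1, also known from leukocytes, at 253 CPM, while Cdh5, Cldn5, Egfl7, Tie1 and Erg stood at 1.58 to 7.18 CPM. An EC marker UMI was found in 64.3% of the B cells with a Spns2 UMI and in 59.7% of those without. Its part in the Spns2 value was not tested. T cells held 3 Spns2 UMIs, neutrophils 4 and dendritic cells 7, and NK cells, ILC2s and patrolling monocytes held none.

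Sphk1, which makes S1P from sphingosine, was highest in alveolar type 1 (AT1) cells, the flat cells of the gas-exchange surface, with 40.8, 46.0 and 38.7 CPM. Next came club-type cells at 14.3 ± 4.33 CPM, Col13a1-type fibroblasts at 13.2 ± 1.54 CPM and Col14a1-type fibroblasts at 7.56 ± 4.09 CPM. The AT1 values did not overlap with those of any other type, while club-type cells and Col13a1-type fibroblasts overlapped. AT2 cells, which make surfactant, had 0.806 ± 0.354 CPM. Sphk1 was near the limit of detection in the vessel lining and in leukocytes: 4 UMIs were counted in 963 ECs and 8 in 3020 immune cells. The EC level (0.409 ± 0.129 CPM) was below that of epithelial cells (7.15 ± 0.882 CPM, -4.51 ± 0.41, edgeR adjusted p = 1.41e-07) and of stromal cells (3.80 ± 0.548 CPM, -3.21 ± 0.47, edgeR adjusted p = 3.17e-05). Against immune cells, at 0.493 ± 0.386 CPM, the difference was -0.67 ± 0.69 (edgeR adjusted p = 0.462), which was not detectable at this depth.

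**Figure D1:**
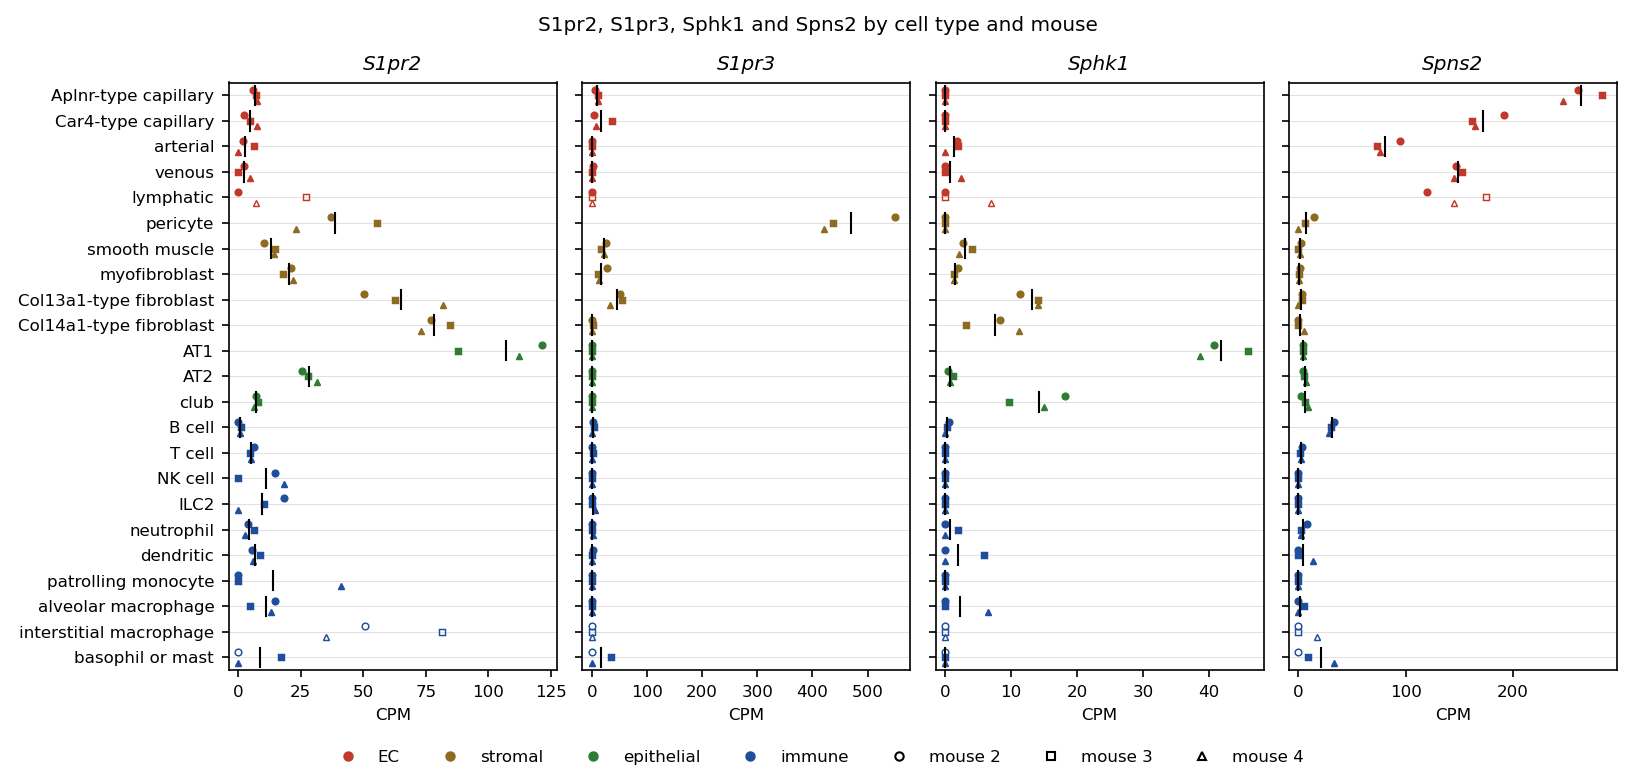
S1pr2, S1pr3, Sphk1 and Spns2 in each cell type: the x axis gives CPM and the y axis the cell type, each point is 1 mouse (filled for a sum of at least 10 cells, open below that), and the black bar is the mean over mice with filled points. S1pr3 stands at 421 to 550 CPM in pericytes and below 56 CPM in every other type. Among the blood EC subtypes, mean Spns2 is highest in Aplnr-type capillary and lowest in arterial ECs.

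S1pr1 was the receptor of the vessel lining. It was found in all EC subtypes, with 635, 718 and 716 CPM in Car4-type capillary cells, 414, 527 and 365 CPM in arterial ECs, 381, 489 and 431 CPM in Aplnr-type capillary cells, and 367, 361 and 460 CPM in venous ECs. The Car4-type values lay above all of the others, and the other blood EC subtypes overlapped with each other. The lymphatic ECs held 159 UMIs (422 CPM, 95% Poisson interval 359 to 493). Car4-type cells had 690 ± 47.2 against 427 ± 43.4 CPM in the other ECs (0.70 ± 0.10, edgeR adjusted p = 7.19e-05). This level joined a sub-cluster of 93 cells (median 9148 UMIs) with 742 ± 21.4 CPM to a shallow one of 74 cells (median 867 UMIs) with 242 ± 69.7 CPM (41 UMIs). The differences of the Aplnr-type (-0.24 ± 0.09), arterial (-0.03 ± 0.11) and venous (-0.16 ± 0.12) cells from the other ECs did not pass the test (edgeR adjusted p = 0.108, 0.895 and 0.452). With mouse as a block the Aplnr-type difference passed (-0.24 ± 0.08, edgeR adjusted p = 0.0401).

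Against the other classes, ECs had 463 ± 47.3 CPM of S1pr1, immune cells 159 ± 19.8, stromal cells 17.0 ± 4.55 and epithelial cells 2.18 ± 2.42. The log2 fold changes of ECs were 7.13 ± 0.32 against epithelial cells (edgeR adjusted p = 3.27e-11), 4.66 ± 0.25 against stromal cells (edgeR adjusted p = 4.42e-10) and 1.29 ± 0.21 against immune cells (edgeR adjusted p = 5.2e-05). Of the Car4-type cells 66.7% had an S1pr1 UMI, of arterial ECs 84.4% and of Aplnr-type cells 87.2%. Thinning to 1000 UMIs left out shallower cells, 47 of the 167 Car4-type, 4 of the 164 arterial and 21 of the 504 Aplnr-type cells. In the cells that remained the shares were 87.5%, 86.7% and 90.3% before thinning and 49.6%, 34.7% and 34.9% after it. In AT2 cells, taken to lack the gene, the share was 1.48%, or 0.107% after thinning.

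Among the named immune types, S1pr1 was highest in T and B cells, and the unnamed cells led by Plac8 had 272, 340 and 245 CPM, overlapping with the T cells. T cells had 298, 290 and 260 CPM, B cells 178, 212 and 244, and NK cells 118, 149 and 165, with no overlap between T and B cells or between B and NK cells. The T cells were above the other immune cells (282 ± 19.99 against 146 ± 22.8 CPM, 0.92 ± 0.13, edgeR adjusted p = 1.16e-05), and so were B cells (212 ± 32.9 against 108 ± 12.9 CPM, 0.91 ± 0.11, edgeR adjusted p = 1.19e-06). Of the 759 S1pr1 UMIs in the cells that B cells were tested against, 208 were in the unnamed cells led by Plac8. Type 2 innate lymphoid cells (ILC2s), a tissue-resident lymphocyte type, had 56.0 ± 10.1 CPM, below the other immune cells (-1.68 ± 0.22, edgeR adjusted p = 1.33e-05). With the immune types weighted equally in place of one remainder in which B cells are the majority, this difference was 1.14 and did not pass (edgeR adjusted p = 0.147).

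Myeloid cells had little S1pr1. Dendritic cells had 4.73 ± 3.10 CPM (8 UMIs in 209 cells), alveolar macrophages 7.26 ± 7.2 and neutrophils 17.1 ± 15.7, and each was below the other immune cells, with log2 fold changes of -5.18 ± 0.26, -4.22 ± 0.43 and -2.42 ± 0.31 (edgeR adjusted p = 1.56e-09, 4.22e-07 and 7.97e-07). With equal weight per type the neutrophil difference was 0.23 (edgeR adjusted p = 0.785). The other 2 calls were also lost (edgeR adjusted p = 1 for both, with SEs of 38364 and 608). Neutrophils of mouse 2 had no S1pr1 UMI, while those of mice 3 and 4 had 20.2 and 31.0 CPM. Patrolling monocytes held no S1pr1 UMI in 68 cells, which allows up to 23.8 CPM, and their level was at least 6.87-fold lower than that of the other immune cells (edgeR adjusted p = 4.41e-08). The 18 interstitial macrophages, too few for a sum of 10 cells in any mouse, held 15 UMIs, or 132 CPM (95% Poisson interval 74.1 to 218).

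Within the T cells, the sub-cluster led by Ikzf2, Foxp3 and Ctla4, genes known from regulatory T cells, had 435, 269 and 328 CPM of S1pr1, and the sub-cluster led by Trbc2, Cd8b1 and Cd8a had 264, 300 and 226. These overlapped, and the difference was not tested. Among stromal cells, Col13a1-type fibroblasts, which lie in the alveolar wall, had 57.0, 72.3 and 66.3 CPM of S1pr1, above the 14.2 ± 2.51 CPM of myofibroblasts. Of the Col13a1-type cells with an S1pr1 UMI 23.9% also had an EC marker UMI, against 18.7% of those without, and its part in the level was not tested.

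S1pr2 had no vascular maximum and was led by AT1 cells, at 121, 88.0 and 112 CPM. The Col14a1-type fibroblast cluster, also led by the cartilage genes Col2a1 and Acan, had 78.2 ± 6.08 CPM. Col13a1-type fibroblasts had 64.9 ± 15.8, pericytes 38.5 ± 16.2 and AT2 cells 28.2 ± 3.08. AT1 cells did not overlap with the next type, whereas each of the next 3 overlapped with its neighbour. ECs had 5.31 ± 1.07 CPM, below epithelial cells (35.3 ± 5.16 CPM, -3.23 ± 0.18, edgeR adjusted p = 4.96e-10) and stromal cells (30.3 ± 3.95 CPM, -2.62 ± 0.19, edgeR adjusted p = 1.42e-08), and 0.24 ± 0.28 from immune cells (3.80 ± 0.261 CPM, edgeR adjusted p = 0.456). In B cells 4 UMIs were found in 1696 cells, and their level was below that of the other immune cells (0.464 ± 0.441 against 7.04 ± 0.549 CPM, -3.55 ± 0.51, edgeR adjusted p = 1.1e-05).

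S1pr3 was the receptor of the pericyte, the contractile cell that wraps capillaries. Pericytes had 550, 437 and 421 CPM, and no other type came near: Col13a1-type fibroblasts had 46.1 ± 11.9, smooth muscle cells 21.9 ± 3.96 and myofibroblasts 17.5 ± 8.54. Pericytes were above smooth muscle cells (4.31 ± 0.17, edgeR adjusted p = 2.12e-13) and above ECs (7.27 ± 3.57 CPM, 6.16 ± 0.21, edgeR adjusted p = 4.19e-14). Their own markers stood at 12141 to 12738 CPM, with 6 of 6 detected. A sub-cluster of 91 pericytes (median 7865 UMIs) had 496 ± 61.6 CPM, and a shallow one of 44 cells (median 783 UMIs, with 7 S1pr3 UMIs) had 137 ± 95.1 CPM. A UMI was found in 66.7% of pericytes, and in 34.1% after thinning, which left out 31 of 135 cells, against 1.05% and 0.335% of B cells.

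S1pr2 was also higher in pericytes than in smooth muscle cells (38.5 ± 16.2 against 12.9 ± 2.46 CPM, 1.39 ± 0.36, edgeR adjusted p = 0.00487). Without mouse 2 the adjusted p was 0.0861, and with a stricter cell filter (500 genes or more, a mitochondrial share up to 10%) it was 0.0522. Against ECs the S1pr2 difference was 2.84 ± 0.41 (edgeR adjusted p = 1.52e-05). S1pr1 showed the reverse, with 5.56 ± 2.45 CPM in pericytes (4 UMIs) and a log2 fold change of -6.38 ± 0.28 against ECs (edgeR adjusted p = 1.08e-12). The myofibroblasts differed among themselves in S1pr3, with 29.0 ± 11.5 CPM in the Aspn- and Hhip-led sub-cluster and 3.96 ± 1.45 CPM in the Pdgfra- and Agt-led one.

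In the ECs, S1pr3 was low and unevenly placed. Of the 45 UMIs in Aplnr-type cells, 42 were in a shallow sub-cluster of 75 cells (median 1960 UMIs), and 21 of the 45 were in marked doublets. That sub-cluster held UMIs of 6 of 6 pericyte markers at 687 to 1312 CPM, while the other 2 Aplnr-type sub-clusters held pericyte markers at 1.81 to 17.3 CPM and S1pr3 at 0.773 and 1.14 CPM. In Car4-type cells S1pr3 was at 4.22, 36.9 and 7.59 CPM, and 16 of the 20 UMIs of their deeper sub-cluster came from mouse 3. In Aplnr-type cells 42 of the 45 UMIs were in 7 cells with a pericyte marker UMI, and in Car4-type cells 3 of 21 were. Such a marker UMI was found in 70% of Aplnr-type cells with S1pr3 and in 8.10% of those without. For Car4-type cells these shares were 17.6% and 6%. The EC class held 67 S1pr3 UMIs, those 42 of the Aplnr-type cells among them. The part of pericyte RNA in these values was not tested. As a class, ECs were below stromal cells (41.4 ± 14.1 CPM, -2.67 ± 0.34, edgeR adjusted p = 6.72e-06) and above epithelial cells, which held 3 UMIs (edgeR adjusted p = 7.37e-05), and differed from immune cells by 1.2 ± 0.52 (2.27 ± 1.6 CPM, edgeR adjusted p = 0.051). Of the 23 S1pr3 UMIs in B cells, 17 were in the Ms4a1- and Vpreb3-led sub-cluster and 6 in the Vpreb3- and Rag1-led one, whose genes are known from B-cell precursors, and none was in a cell with a pericyte marker UMI.

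**Figure D2:**
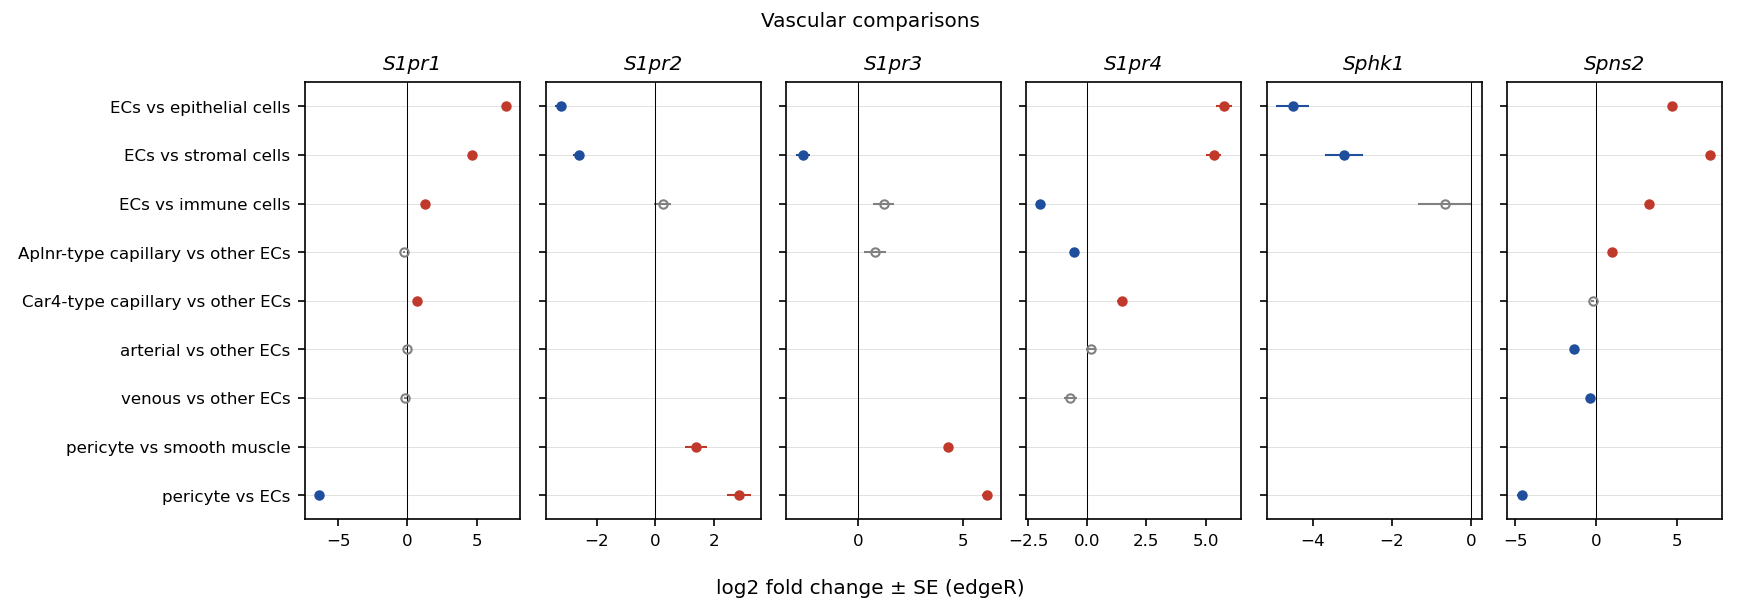
Log2 fold changes ± SE (edgeR) of 6 genes in the comparisons of ECs, EC subtypes and pericytes: red points were higher and blue points lower at an adjusted p under 0.05, open grey points did not pass, the x axis differs between panels, and comparisons with under 4 UMIs of the gene in either group are not drawn. S1pr3 lies at 6.16 in pericytes against ECs, where S1pr1 lies at -6.38.

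S1pr4 was spread over lymphoid and myeloid cells and, of the receptors with enough UMIs to be tested, differed between EC subtypes along with S1pr1. The unnamed cells led by Plac8 had 126, 210 and 118 CPM, overlapping with the T cells. Of the named types, T cells had 150, 121 and 153 CPM, B cells 129, 129 and 104, NK cells 118, 87.2 and 82.4, and ILC2s 122, 46.7 and 63.4. Basophils or mast cells had 139 ± 33.5 CPM (n = 2 mice), patrolling monocytes 68.8 ± 50.3 (8 UMIs), neutrophils 43.1 ± 7.18, dendritic cells 21.1 ± 4.23 and alveolar macrophages 16.6 ± 4.85. Neighbours in this order overlapped from T cells down to patrolling monocytes.

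T cells were above the other immune cells (142 ± 17.7 against 93.0 ± 12.2 CPM, 0.54 ± 0.15, edgeR adjusted p = 0.00862), although the adjusted p was 0.0556 without mouse 2 and 0.148 without mouse 4. B cells were also above (120 ± 14.4 against 75.6 ± 3.59 CPM, 0.62 ± 0.11, edgeR adjusted p = 8.16e-05). The unnamed cells led by Plac8 held 113 of the 523 S1pr4 UMIs that B cells were tested against. Dendritic cells (-2.25 ± 0.20, edgeR adjusted p = 3.93e-07) and alveolar macrophages (-2.51 ± 0.36, edgeR adjusted p = 2e-05) were below. NK cells, ILC2s, neutrophils and patrolling monocytes differed by -0.20 ± 0.22, -0.53 ± 0.26, -0.49 ± 0.21 and -1.0 ± 0.46 and did not pass the test (edgeR adjusted p = 0.576, 0.159, 0.0511 and 0.126). For neutrophils the levels were 43.1 ± 7.18 against 102 ± 10.5 CPM, lower in all 3 mice without overlap. In that comparison, dropping TMM shifted the median of all genes by -0.75, so the size of the neutrophil difference depends on the scaling. In the Foxp3-led T cells S1pr4 was at 264, 155 and 209 CPM and in the Cd8a-led ones at 122, 104 and 126, without overlap, and this difference was not tested.

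ECs had 28.7 ± 1.36 CPM of S1pr4, below immune cells (97.8 ± 9.53 CPM, -2.02 ± 0.15, edgeR adjusted p = 9.82e-09) and above stromal cells (0.657 ± 0.442 CPM, 5.35 ± 0.31, edgeR adjusted p = 1.05e-09) and epithelial cells (0.401 ± 0.375 CPM, 5.76 ± 0.33, edgeR adjusted p = 5.98e-10). Within the ECs the Car4-type cells were highest, at 54.9, 62.3 and 75.9 CPM, and did not overlap with the arterial (30.03 ± 3.85), Aplnr-type (23.9 ± 4.10) or venous (17.2 ± 3.79) cells. Their difference from the other ECs was 1.47 ± 0.20 (64.4 ± 10.6 against 23.2 ± 2.50 CPM, edgeR adjusted p = 3.6e-05). Immune marker RNA stood at 10.5 to 114 CPM over 6 of 6 markers in Car4-type cells and at 4.53 to 201 CPM in the other subtypes. In Car4-type cells 14 of the 83 S1pr4 UMIs were in cells with an immune marker UMI. Such a UMI was found in 9.62% of Car4-type cells with S1pr4 and in 5.22% of those without. These shares were 22.2% and 8.59% in arterial and 19% and 10.1% in Aplnr-type cells. The part of immune RNA in the S1pr4 levels was not tested. Of Car4-type cells with S1pr4, 51 of 52 also had S1pr1, while 59 cells had S1pr1 alone and 56 had neither. S1pr1 was found in 100% of the cells of the deeper Car4-type sub-cluster, so this overlap does not set the S1pr4 cells apart. The Aplnr-type cells were below the other ECs (-0.55 ± 0.17, edgeR adjusted p = 0.0412), a call that held in 6 of 14 alternatives and gave adjusted p values of 0.203 without mouse 3, 0.333 without mouse 4 and 0.254 with DESeq2.

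S1pr5 was found almost wholly in patrolling monocytes, the vessel-surveying monocytes with high Cx3cr1, and in NK cells. Patrolling monocytes had 275, 270 and 431 CPM (42 UMIs in 68 cells) and NK cells 103, 137 and 54.9 CPM (53 UMIs in 77 cells), with no overlap. T cells held 6 S1pr5 UMIs, dendritic cells 4, and no other type more than 1. Patrolling monocytes were above the other immune cells (325 ± 91.6 against 4.27 ± 2.43 CPM, 5.80 ± 0.42, edgeR adjusted p = 2.38e-18), and NK cells were as well (98.3 ± 41.2 against 4.02 ± 1.39 CPM, 4.58 ± 0.37, edgeR adjusted p = 1.19e-09). Each of these 2 types stood in the other's remainder. Of the 6 NK markers, Klrb1c had UMIs in patrolling monocytes, and Ncr1, Klre1, Klra8, Gzma and Eomes were at 0, which allows up to 23.8 CPM each. The whole NK list stood at 0 to 22.5 CPM, and the part of NK RNA in the S1pr5 level was not tested. When marked doublets were removed before clustering, the level in patrolling monocytes was 208 CPM. None of the 68 patrolling monocytes was itself marked, and no S1pr5 UMI was in a marked doublet. The cause of this change in level was not tested.

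An S1pr5 UMI was found in 42.7% of patrolling monocytes and 40.3% of NK cells, or 30.6% and 11.01% after thinning to 1000 UMIs, which left out 7 of the 68 monocytes and none of the 77 NK cells, against 0.087% and 0.00424% of AT2 cells. Of the 77 NK cells, 19 had both S1pr1 and S1pr5, 19 had S1pr1 alone, 15 had S1pr5 alone and 24 had neither. No S1pr5 UMI was found in 963 ECs, which allows up to 0.311 CPM, nor in 1696 B cells, which allows up to 0.431 CPM. The level was at least 24.6-fold lower in ECs than in immune cells (edgeR adjusted p = 9.53e-07) and at least 35.7-fold lower in B cells than in the other immune cells (edgeR adjusted p = 4.82e-08). Neutrophils held none either and were at least 3.04-fold lower (edgeR adjusted p = 0.00883, and 0.0679 without mouse 3). With equal weight per type the S1pr5 calls of B cells and neutrophils were lost (edgeR adjusted p = 1 for both, with SEs of 7513 and 6306). Dendritic cells, at 2.25 ± 0.585 CPM, differed by -1.72 ± 0.53 (edgeR adjusted p = 0.0159), which was 0.0762, 0.0665 and 0.0550 without mouse 2, 3 or 4 and 0.0614 with DESeq2. With equal weight per type the difference was 0.19 (edgeR adjusted p = 0.488). Alveolar macrophages held no UMI and were at least 1.31-fold lower (edgeR adjusted p = 0.0408). With mouse as a block the adjusted p was 0.0630, without mouse 2, 3 or 4 it was 0.104, 0.134 and 0.108, and with equal weight per type it was 1.

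**Figure D3:**
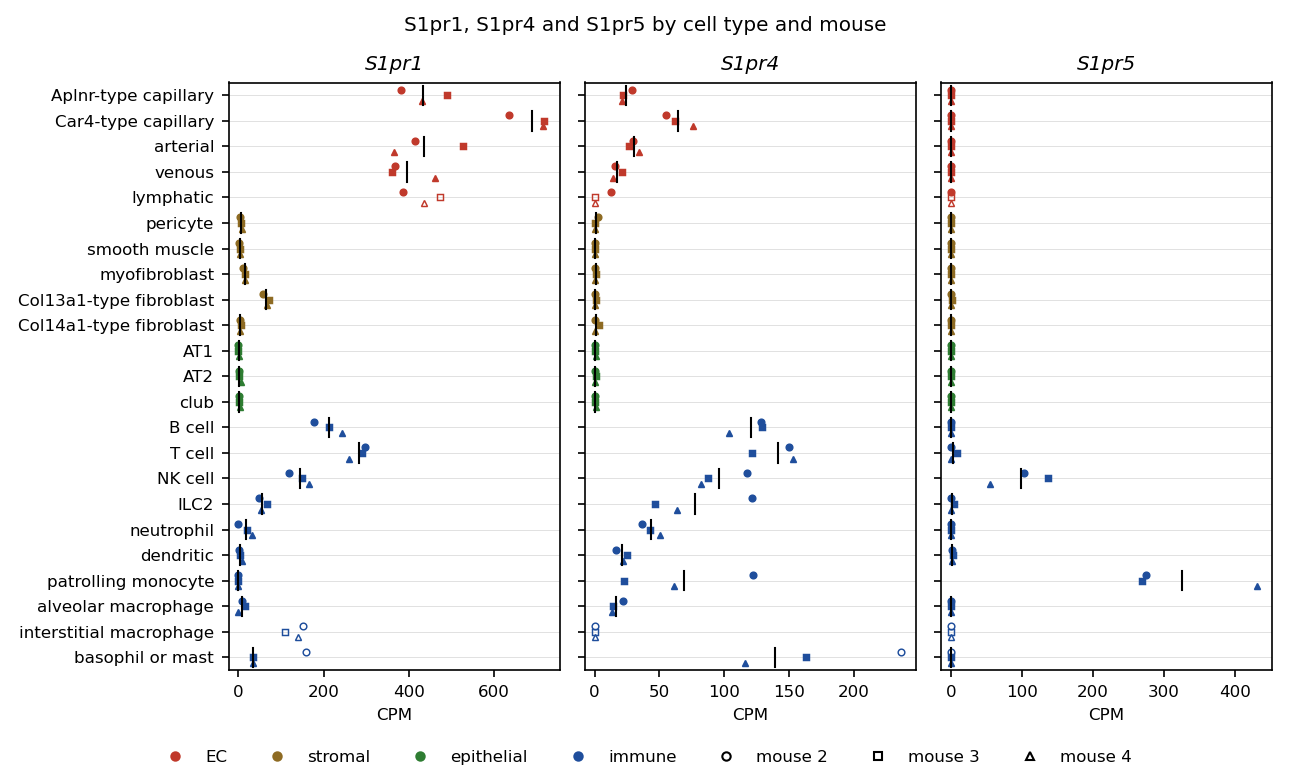
S1pr1, S1pr4 and S1pr5 in each cell type, drawn as in the plot of S1pr2, S1pr3, Sphk1 and Spns2 (x axis in CPM, 1 point per mouse, black bar for the mean of the filled points). S1pr5 stands at 270 to 431 CPM in patrolling monocytes and 54.9 to 137 CPM in NK cells, and S1pr1 is highest in Car4-type capillary cells.

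Counted by comparison, the genes that passed the test are read against the share of all tested genes that passed in either direction. For ECs, 6 of 7 genes differed from epithelial cells (4 higher, 2 lower), where 66.4% of all genes did. Against stromal cells it was 6 of 7 (3 higher, 3 lower), beside 55.8% of all genes, and against immune cells 4 of 7 (2 higher, 2 lower), beside 69.5%. These shares are near the background. Between EC subtypes the background was lower. In Aplnr-type cells 2 of the 4 genes tested passed, Spns2 higher and S1pr4 lower, beside 17.4% of all genes. In Car4-type cells 2 of 3 passed, S1pr1 and S1pr4, both higher, beside 20.7%. In arterial ECs 1 of 3 passed, beside 21.8%, and in venous ECs 1 of 3, beside 18.5%, and both were Spns2 at a lower level. The genes not tested had too few UMIs in these subtypes. They were S1pr2, S1pr5 and Sphk1 in each, and S1pr3 in all but the Aplnr-type comparison.

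For the immune types, 5 of the 5 genes tested passed in B cells (3 higher, 2 lower), beside 57.6% of all genes. In T cells 3 of 4 passed, S1pr1 and S1pr4 higher and Spns2 lower, beside 34.7%. The Spns2 level of T cells was 2.35 ± 0.783 CPM (3 UMIs) against 19.2 ± 0.330 CPM (edgeR adjusted p = 5.05e-05). In NK cells 2 of 4 passed, S1pr5 higher and Spns2 at least 2.93-fold lower (edgeR adjusted p = 0.00158), beside 25.3%. In ILC2s 2 of 4 passed, S1pr1 lower and Spns2 at least 3.21-fold lower (edgeR adjusted p = 0.00166), beside 25.7%. Most Spns2 UMIs of the remainder in each of these comparisons were those of B cells.

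Among myeloid cells the calls were all downward other than S1pr5 in patrolling monocytes, where 2 of 4 genes passed, beside 18.2% of all genes. In neutrophils 3 of 4 passed, beside 61.9%, among them Spns2 at 4.30 ± 3.29 CPM (-1.6 ± 0.58, edgeR adjusted p = 0.0225, and 0.195 and 0.126 without mouse 3 or 4). In dendritic cells 4 of 4 passed, beside 48.2%, with Spns2 at 4.66 ± 8.07 CPM (-2.14 ± 0.63, edgeR adjusted p = 0.0121, and 0.112 and 0.104 without mouse 2 or 3). In alveolar macrophages 4 of 4 passed, beside 38.3%, with 1 Spns2 UMI (edgeR adjusted p = 0.0139, and 0.0706 and 0.0857 without mouse 2 or 4). Basophils or mast cells were summed in mice 3 and 4 only, while the remainder they were tested against held all 3 mice. In them 1 of 6 genes passed, beside 16.7%: S1pr1, with a difference of -2.41 ± 0.41 (edgeR adjusted p = 0.000286). In mice 3 and 4 the S1pr1 levels were 33.7 ± 0.905 against 173 ± 0.596 CPM (n = 2 mice). With equal weight per type the difference was 0.34 (edgeR adjusted p = 0.885).

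Pericytes differed from smooth muscle cells in 2 of the 2 genes tested, both higher, beside 35.3% of all genes, and from ECs in 5 of 5, beside 38% of all genes. S1pr2 and S1pr3 were higher than in ECs and S1pr1, S1pr4 and Spns2 lower, with S1pr4 at 1 UMI (edgeR adjusted p = 5.06e-05) and Spns2 at 6.82 ± 7.18 against 200 ± 3.77 CPM (-4.60 ± 0.32, edgeR adjusted p = 8.75e-10). Over the 18 comparisons, 55 of 80 tests passed, where 16.7% to 69.5% of all genes passed by comparison. In these 55 the values of the 2 groups did not overlap between mice, and in 7 of them 1 group had no UMI of the gene. The overlap was not counted for all genes. It rests on the same values as the tests, so it adds no support to them.

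**Figure D4:**
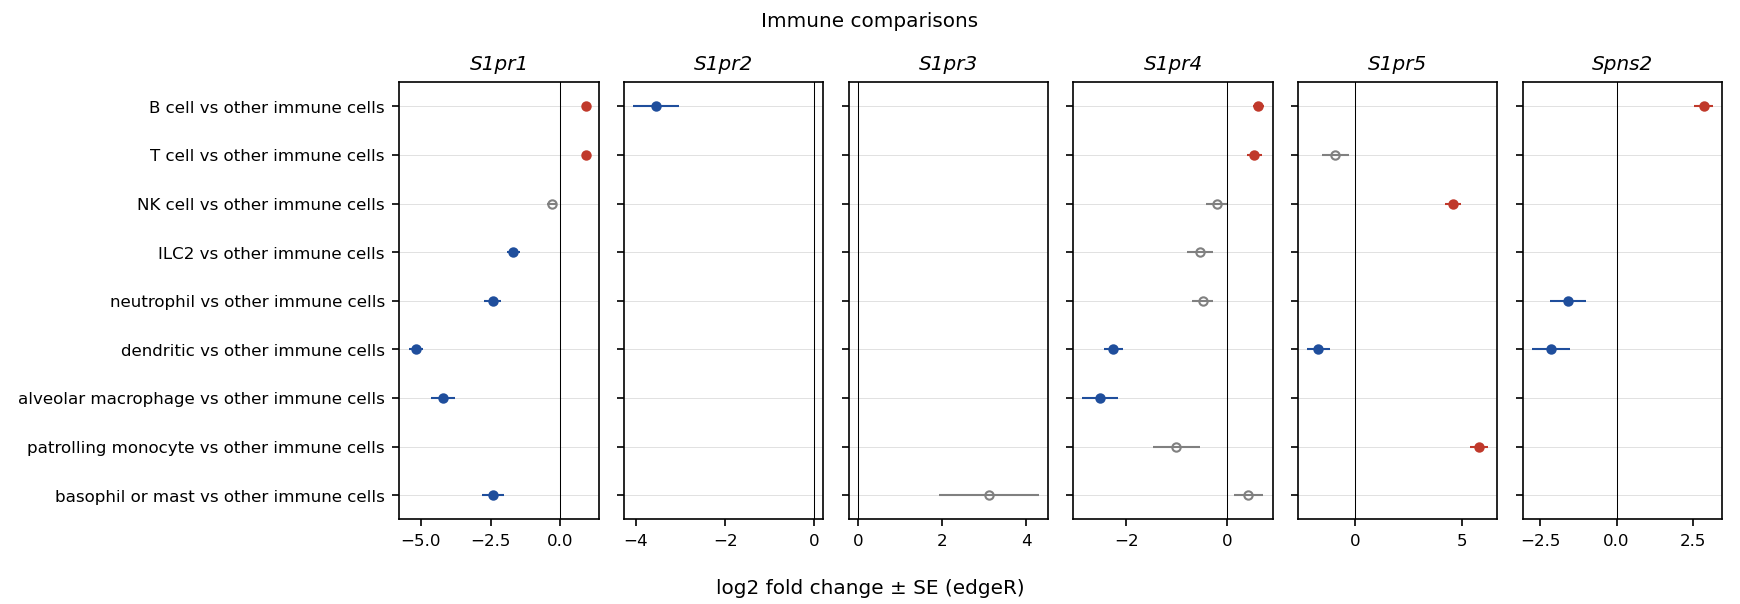
Log2 fold changes ± SE (edgeR) of 6 genes in each immune type against all other immune cells, with colours as in the plot of vascular comparisons and comparisons with under 4 UMIs of the gene in either group left out. S1pr5 lies at 5.80 in patrolling monocytes and 4.58 in NK cells, and S1pr1 lies from -5.18 in dendritic cells to 0.92 in T cells.

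The other genes of the pathway were taken from a list of 34: 15 for making S1P and supplying sphingosine, 4 exporters and carriers, 6 for breakdown and 9 for receptor coupling and control. Of the 31 tested between classes, 16 were higher and 11 lower in ECs than in epithelial cells, with a median log2 fold change of 0.28 beside 0.05 over all genes, of which 66.4% passed. Against stromal cells 19 were higher and 6 lower (median 0.56 beside -0.06, with 55.8% of all genes), and against immune cells 19 were higher and 9 lower (0.62 beside -0.02, with 69.5%). Unlike Sphk1, the other kinase, Sphk2, was found in all 21 types with a sum in at least 2 mice, from 10.8 ± 12.8 CPM in NK cells to 36.1 ± 34.0 CPM in patrolling monocytes.

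Of the 14 supply genes tested, 4 were higher and 7 lower in ECs than in epithelial cells. Against stromal cells 9 were higher and 1 lower, and against immune cells 11 were higher and 2 lower. Over all genes, 33.8% were higher and 32.5% lower than in epithelial cells. These shares were 24.8% and 31% against stromal cells, and 34.1% and 35.4% against immune cells. Among the supply genes higher than in stromal and immune cells was the alkaline ceramidase Acer2, which releases sphingosine from ceramide. It was at 871 ± 67.0 CPM in arterial ECs, 475 ± 34.9 in Aplnr-type, 432 ± 114 in venous and 168 ± 45.4 in Car4-type cells. Its log2 fold change in ECs was 6.81 ± 0.14 against stromal cells (edgeR adjusted p = 4.97e-14) and 7.27 ± 0.15 against immune cells (edgeR adjusted p = 2.39e-14). Between subtypes Acer2 was higher in arterial ECs (1.19 ± 0.09, edgeR adjusted p = 7.29e-09) and lower in Car4-type cells (-1.63 ± 0.14, edgeR adjusted p = 1.73e-07). Spns2 was lower in the arterial ECs in which Acer2 was higher. Of the breakdown genes, the lipid phosphatase Plpp1 was higher in ECs than in epithelial cells (6.06 ± 0.23) and immune cells (6.26 ± 0.24) and was higher in Car4-type cells than in the other ECs (643 ± 80.7 CPM, 0.73 ± 0.10, edgeR adjusted p = 5.76e-05). The S1P phosphatase Sgpp2 was lower in ECs than in epithelial cells (-5.13 ± 0.32), with 91.8 ± 8.80 CPM in AT2 cells.

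Of the genes that act on the receptors, Klf2, a shear-responsive transcription factor known to raise S1pr1 transcription, was higher in ECs than in epithelial cells (5.54 ± 0.19) and stromal cells (2.97 ± 0.16). Cd69, whose product binds S1PR1 and draws it from the surface of lymphocytes, was lower in ECs than in immune cells (-6.09 ± 0.35). In B cells Cd69 stood at 104 ± 16.9 CPM and was higher than in the other immune cells (1.24 ± 0.14, edgeR adjusted p = 6.78e-07), and T cells had 91.5 ± 3.60 CPM. Dendritic cells, low in S1pr1, were low in Cd69 too (-3.46 ± 0.27, edgeR adjusted p = 1.56e-07). Alveolar macrophages held no Cd69 UMI and were lower in Klf2 (-3.27 ± 0.23, edgeR adjusted p = 4.49e-09).

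Within the ECs, 27 of the 34 genes could be tested. In Aplnr-type cells 7 were higher and 3 lower, beside 17.4% of all genes in either direction, among them Arrb2, an arrestin that binds activated receptors (0.82 ± 0.17), Gna12 (0.55 ± 0.11), Smpd1 (-0.85 ± 0.16) and Plpp3 (-0.55 ± 0.08). In Car4-type cells 4 were higher and 4 lower, beside 20.7%, with Gna13, a G protein alpha subunit, at 0.82 ± 0.11. In arterial ECs 4 were higher and 8 lower, beside 21.8%, with Abcc1 at 1.04 ± 0.24, Arrb2 at -1.68 ± 0.29 and Gna13 at -1.14 ± 0.14. Venous ECs had 5 higher and 4 lower, beside 18.5%, with Asah2 at 1.48 ± 0.33, Sptlc2 at 0.81 ± 0.12, Plpp1 at -0.72 ± 0.12 and Gna13 at -0.60 ± 0.14. The medians of the list in these 4 comparisons, and those over all genes, lay within 0.02 of 0.

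Across immune types the list moved in both directions, and the share of all genes that passed is given last in each parenthesis. In neutrophils 13 of 26 were higher and 5 lower (median 0.71 beside -0.40 over all genes, 61.9%), led by the ceramide synthase Cers6 (4.20 ± 0.22) and Arrb2 (2.26 ± 0.16), with Kdsr (-1.59 ± 0.50) and Cers4 (-1.58 ± 0.32) lower. In dendritic cells 13 of 28 were higher and 8 lower (0.35 beside -0.03, 48.2%), led by Plpp1 (4.11 ± 0.39) and the ceramidase Acer3 (3.02 ± 0.22). B cells had 8 of 27 higher and 11 lower (-0.25 beside -0.01, 57.6%), with Plpp3 at 1.6 ± 0.30 and Cers6 at -2.99 ± 0.27. T cells had 3 of 26 higher and 8 lower (-0.25 beside -0.03, 34.7%), with Kdsr (0.77 ± 0.24) and Arrb2 (0.56 ± 0.17) higher and Abca1 lower (-2.64 ± 0.31). NK cells had 1 of 27 higher, Arrb2 (0.87 ± 0.18), and 6 lower (25.3%), with Abcc1 at -2.77 ± 0.69 and Asah1 at -2.61 ± 0.47. In ILC2s 2 of 26 were higher, Cers4 (1.56 ± 0.19) and Arrb2 (0.92 ± 0.17), and 9 were lower (25.7%), with Cers6 at 0 UMIs.

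In alveolar macrophages 5 of 27 were higher, led by the acid ceramidase Asah1 (1.99 ± 0.19) and Sptlc2 (1.46 ± 0.23), and 6 lower, beside 38.3% of all genes. Patrolling monocytes had 3 of 26 higher and 3 lower, beside 18.2%, with Acer3 at 2.36 ± 0.50 and Cers6 at 2.19 ± 0.53. Basophils or mast cells had 2 of 28 higher, Abcc1, a transporter known to export S1P from mast cells (3.02 ± 0.30), and Arrb2 (2.09 ± 0.21), and 2 lower, Gna13 (-1.31 ± 0.42) and Klf2 (-1.08 ± 0.20), beside 16.7%. In pericytes against smooth muscle cells 7 of 26 were higher and 5 lower (0.36 beside -0.02, and 35.3% of all genes), with Klf2 at 1.55 ± 0.23, the S1P lyase Sgpl1, which breaks S1P down for good, at 1.46 ± 0.23, Acer3 at -2.40 ± 0.55 and Abcc1 at -2.03 ± 0.28. In pericytes against ECs 6 of 29 were higher and 13 lower (-0.53 beside -0.07, and 38% of all genes), with Cers6 (2.79 ± 0.59) and Sgpl1 (1.99 ± 0.24) higher and Acer2 (-5.86 ± 0.24) and Plpp1 (-4.03 ± 0.19) lower.

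**Figure D5:**
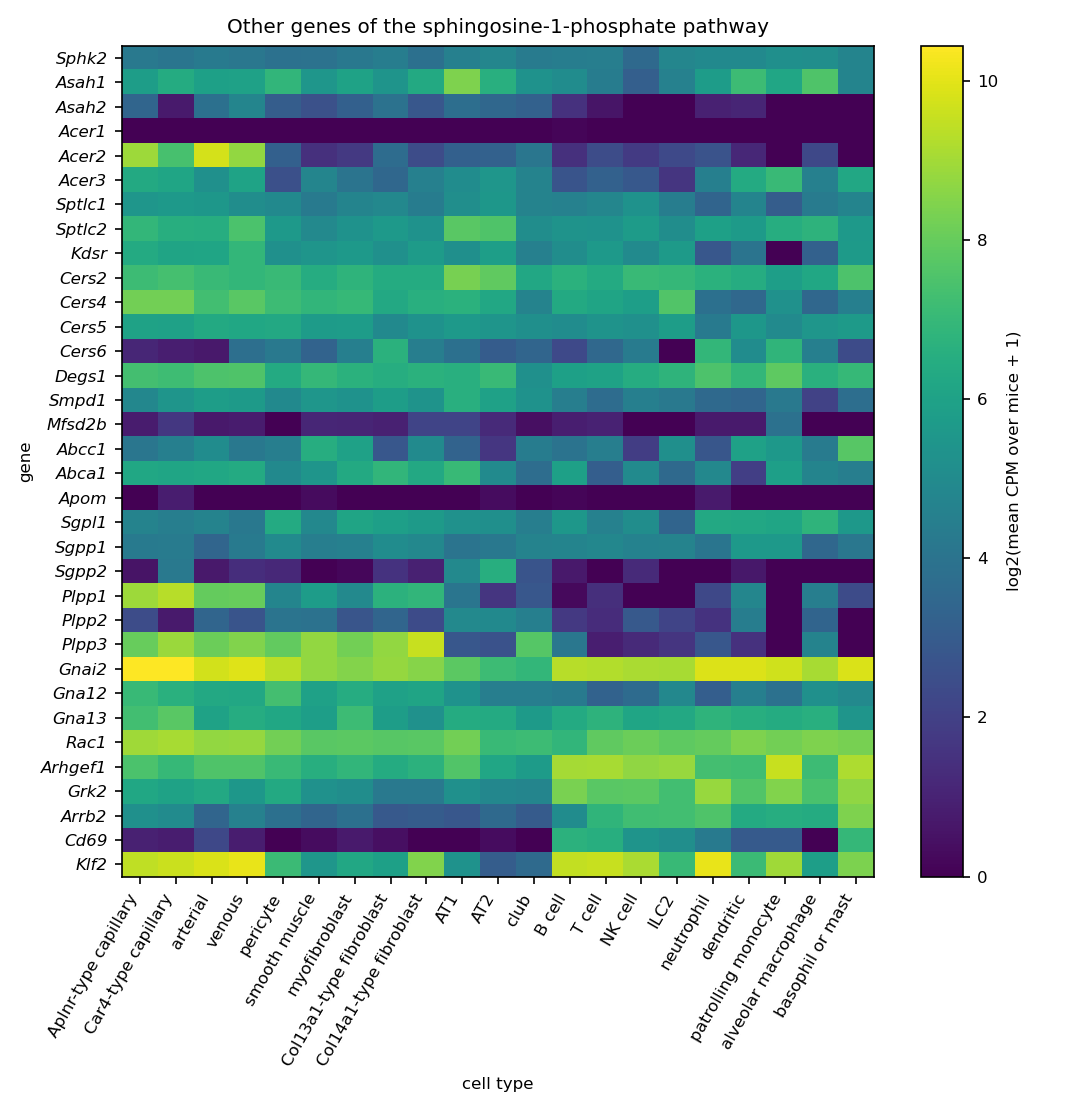
The 34 other pathway genes (y axis) in 21 cell types (x axis), with colour for log2(mean CPM over mice + 1). Acer2 and Plpp1 are bright in the 4 blood EC subtypes, where Acer2 reaches 871 CPM, while Acer1, Mfsd2b and Apom are dark in nearly all types.

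The genes with the most similar pattern over cell types were found by Pearson's r of log2(CPM + 10) over 21 types and 12556 genes. The types come from the same 3 libraries, so r is given as a description. S1pr1 was closest to Icam2 (r = 0.921), Gbp4 (0.894) and Gimap6 (0.890), and Spns2 to Rasgrp3 (0.948), Myzap (0.946) and Myct1 (0.942). Among the genes near S1pr3 were Hunk (0.912) and Gucy1b3 (0.890). S1pr4 was closest to Il2rg (0.931), Arhgap25 (0.920) and Tmc8 (0.918), and S1pr5, with levels near 0 in all but 2 types, to Cx3cr1 (0.884), Syne3 (0.882) and Osgin2 (0.818). S1pr2 was closest to Mrc2 (0.909), BC067074 (0.859) and Gpc3 (0.858), and Sphk1 to BC067074 (0.897), Pdpn (0.890) and Msln (0.877), so that BC067074 stood near both genes with their maximum in AT1 cells.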

How the data were processed

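Whole lungs of 3 mice were measured by scRNA-Seq with the 10x 3′ v3 kit. The deposited UMI counts per gene and droplet were made by the authors with Cell Ranger 3.0.2 on mm10 (submitters' processing notes; the annotation is not given in the sources used here) and were used as deposited. The authors' clusters and cell names were not used here, so the types were rebuilt. Droplets with 200 genes or more and a mitochondrial share up to 20% were normalized and clustered with Seurat 5.3.0 and sctransform 0.4.2 (30 components, resolution 0.8), and ECs and immune cells were clustered again (20 components). Doublets were scored per library with scrublet in scanpy, and the highest scores were marked at an assumed rate of 0.8% per 1000 cells. The number marked was thus set in advance, at 46, 54 and 56 in mice 2, 3 and 4. The automatic cutoff of scrublet marked 12, 14 and 23. Marked cells were kept. Naming thresholds were set after the clusters, but before the genes' values, were seen.

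UMIs were summed per mouse and type (at least 10 cells) and tested with edgeR 4.0.16 (TMM, filterByExpr, quasi-likelihood, adjusted p threshold 0.05, BH over all genes). SE is the log2 fold change over the root of F. With 3 UMIs taken as the floor, folds against a group at 0 are lower bounds. Intervals and floors cover counting error only. Statistical scripts were tested on simulated data. Alternatives were DESeq2 1.42.0, no TMM, no low-count filter, mouse as a block, equal weight per type, leaving out each mouse, a stricter cell filter, doublets removed, log-normalization and resolutions 0.4 and 1.2. Leaving out the shallow capillary sub-clusters was added after seeing the data.

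Mouse numbers pair the sums, since cell types of 1 number come from the same animal. Same-mouse deviations between classes correlated at r = 0.034 to 0.191 over 14212 genes. The 7 genes, the pathway list and the marker lists were chosen with earlier results of these data known. Named were the 7 genes, at most 2 pathway genes per direction and comparison among those past the threshold, and the 3 genes of most similar pattern for each (at least 200 UMIs), with 1 gene and 1 small cluster without a class not reported here. Sub-clusters and their leading genes, and genes of the pathway named for their known role or beside a receptor (Sphk2), were named after their values were seen. Promoter windows were from RefSeq, with an entry matched for 6 of the 7 genes.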

Additional observations from a re-analysis of the deposited data

Results flagged for a closer look

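Cells left without a class entered no comparison and still held UMIs of these genes. The 144 dividing cells, led by Top2a and Mki67, held 306 S1pr1 UMIs (155 CPM), 40 of S1pr2, 47 of S1pr4 and 93 of Spns2, each above the limit of 3 that a count of 0 allows. The 453 shallow droplets led by Hpgd and Sox7, with a median of 843 UMIs, held 33 S1pr1 UMIs (72.8 CPM) and 64 of Spns2 (141 CPM). With no control group in the series, these are given as values only.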

How the results depend on the processing

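Of 730 alternative values for the 55 differences that passed the test, 685 kept direction and call, 40 kept direction and lost the call and 5 changed sign. The 5 that changed sign did so with equal weight per type: Spns2 in venous ECs (0.021), and S1pr1 in ILC2s (1.14), neutrophils (0.23) and basophils or mast cells (0.34) and S1pr5 in dendritic cells (0.19). The edgeR adjusted p of the immune ones with this weighting was 0.147, 0.785, 0.885 and 0.488, in this order. For the immune types, types without a UMI of the gene weigh as much as B cells in that fit. That weighting also gave 11 calls over the immune types in place of 26, and the other 53 counts of calls stayed within 1.5 times. Without replicate 2, 3 or 4, the counts of calls were 16 to 17 for the classes (16 with all mice), 4 to 7 for EC subtypes (6), 21 to 22 for immune types (26) and 6 to 7 for pericytes (7). With mouse as a replicate block they were 16, 7, 25 and 7, and S1pr5 in alveolar macrophages (adjusted p = 0.0630) was the one call lost and S1pr1 in Aplnr-type cells (0.0401) the one gained. S1pr4 in Aplnr-type cells passed in 6 of 14 alternatives and had an adjusted p of 0.0642 without the shallow capillary sub-clusters, an alternative chosen after seeing the data, in which S1pr1 in Car4-type cells rose to 0.77. Of 81 alternative levels 5 moved by more than the SD between mice: S1pr5 in patrolling monocytes to 208 CPM without marked doublets, S1pr3 in smooth muscle to 36.8 and 34.6 CPM with log-normalization and resolution 1.2, and S1pr1 in Car4-type cells to 595 and 597 CPM with log-normalization and resolution 0.4. No patrolling monocyte was itself marked as a doublet, and causes were not tested. Dropping TMM shifted the median of all genes by 0.48 for ECs against epithelial cells, -0.75 for neutrophils and 0.37 for patrolling monocytes. It moved the share of calls that were higher from 51.0% to 70.8%, 42.9% to 22.5% and 33.1% to 53.8%, and for ECs against immune cells from 49.1% to 60.3%, venous ECs 53.0% to 39.1%, NK cells 35.3% to 46.1% and ILC2s 38.4% to 49.4%. No member changed sign without TMM. Of 14 alternative values for shares, 12 moved and 2 stayed the same. Depth limits Sphk1 and S1pr5, with 246 and 110 UMIs in all.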
